A study of Arabidopsis thaliana with 8 samples.

Results

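The regions described here are stretches of messenger RNA inside coding sequence (CDS) that were bound by an antibody against N6-methyladenosine (m6A) in wild-type leaves of Arabidopsis thaliana. They were found by merging the peaks of the wild-type lists that shared at least 1 bp on the same strand. A merged region was taken when its midpoint lay in the CDS of 1 nuclear gene, on that gene's strand and more than 200 nt past the start codon, in the transcript with the longest CDS. This gave 892 of 9645 wild-type regions (9.25%), in 856 genes. Most of the other wild-type regions, 8009 (83.0%), had their midpoint in a 3' UTR. All 4 lists merged together gave 11522 regions.

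The samples were leaves 5 to 9 of plants 4 weeks old, in the Col-0 ecotype, grown in soil at 22 °C under 16 h light and 8 h dark and harvested 4 h after first light. The compared genotypes were wild type and ABI3:MTA, here called mta, a line in which the methyltransferase gene MTA is placed under the ABI3 promoter, which is active in embryos and little in leaves. Both genotypes carry the same ecotype background, and no other allele or agent is named. Each of the 4 m6A+ libraries, 2 per genotype, came from 7 µg of poly(A)+ RNA and has its own peak list, and the labels do not say that replicates came from separate plants. The permutation p-values below therefore measure only a spread between libraries that may be technical. The Fisher p-values take regions as units and measure no spread between libraries or plants. MTA itself had no wild-type region in its 3' UTR or in the coding part searched here, and the genotype was not checked from the lists. The lists hold no RNA levels with which to check the tissue.

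In plants m6A is laid down on messenger RNA by a nuclear writer complex whose catalytic subunits are MTA and MTB, helped by FIP37, VIRILIZER and HAKAI. Proteins of the YTH family (ECT proteins in Arabidopsis) and CPSF30 read the mark, and ALKBH9B and ALKBH10B remove it. The textbook consensus is RRACH, which stands for a pentamer that opens with A or G, has A or G again, goes on with A and then C, and ends in A, C or U. The mark is known to gather around stop codons and in 3' UTRs. miCLIP crosslinks the antibody to RNA with ultraviolet light, so that the bound site can be located. Where fewer molecules of a transcript and less methylation per molecule would both remove a peak, a peak list cannot tell them apart.

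The regions are described below as those beside the stop codon and those in the interior of the coding sequence, with a few examples of each. Some high-ranked regions beside a stop codon, such as AT4G34090 and AT5G19500, had no RRACH pentamer within 50 nt of the midpoint. The following 3 are among the highest-scoring regions found in both wild-type lists, lie beside a stop codon and do not reach the 3' UTR. They are shown on the transcribed strand with T for U, and capitals mark the RRACH pentamers.
AT4G16070 (TAIR10 chr4:9096823-9097001, minus strand): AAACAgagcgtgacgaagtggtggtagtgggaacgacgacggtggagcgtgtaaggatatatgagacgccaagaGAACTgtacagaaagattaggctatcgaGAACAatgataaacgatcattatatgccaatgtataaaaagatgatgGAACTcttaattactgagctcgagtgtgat
AtPOT1a (TAIR10 chr2:1894112-1894188, plus strand): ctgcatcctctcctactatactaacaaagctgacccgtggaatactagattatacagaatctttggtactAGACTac
GLIP5 (TAIR10 chr1:20139546-20139628, plus strand): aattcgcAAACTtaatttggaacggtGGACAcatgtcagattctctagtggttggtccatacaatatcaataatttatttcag

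The next 5 are the highest-ranked regions in both wild-type lists that lay more than 1000 nt upstream of a stop codon. None of these stretches holds an RRACH pentamer, so no letter is in capitals. In each of them A and G together make up more of the bases than C and T do.
emb1579 (TAIR10 chr2:953769-953846, plus strand): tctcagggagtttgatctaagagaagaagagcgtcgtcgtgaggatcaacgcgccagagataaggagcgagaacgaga
AT1G60200 (TAIR10 chr1:22202416-22202529, minus strand): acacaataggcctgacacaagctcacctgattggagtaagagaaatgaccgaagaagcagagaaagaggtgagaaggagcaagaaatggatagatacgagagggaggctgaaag
AT1G20920 (TAIR10 chr1:7285786-7285900, plus strand): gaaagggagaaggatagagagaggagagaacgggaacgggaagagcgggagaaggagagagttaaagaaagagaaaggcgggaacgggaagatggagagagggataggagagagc
AT3G24080 (TAIR10 chr3:8696505-8696624, minus strand): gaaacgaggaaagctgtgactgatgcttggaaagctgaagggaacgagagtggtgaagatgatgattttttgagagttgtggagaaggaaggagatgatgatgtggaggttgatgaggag
AT1G15280 (TAIR10 chr1:5252719-5252799, plus strand): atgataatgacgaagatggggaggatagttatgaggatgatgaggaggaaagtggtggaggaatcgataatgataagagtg

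The last pair shows interior regions that were also met by a peak in both mta lists, with capitals as above. Only the coding part of the ATP-PRT2 region is shown, and it holds no RRACH pentamer.
ACX3 (TAIR10 chr1:1924949-1925022, plus strand): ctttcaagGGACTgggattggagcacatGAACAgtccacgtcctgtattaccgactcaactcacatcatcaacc
ATP-PRT2 (TAIR10 chr1:3173827-3173884, plus strand): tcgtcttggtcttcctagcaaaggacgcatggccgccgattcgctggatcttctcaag

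Coding regions were crowded against the stop codon. Of the 892 regions, 636 (71.3%, 95% interval 68.2 to 74.3%) had their midpoint within 200 nt of the stop codon or in it, where 26.2% of all positions that the rule would accept in the same genes lie. Within 50 nt there were 395 regions (44.3%) against 7.64% of positions, and 43 regions had the midpoint in the stop codon itself. The median distance was 68 nt, and the farthest region lay 4939 nt upstream. Among regions found in both wild-type lists, 154 of 181 (85.1%) were within 200 nt of the stop codon, against 24.5% of positions. Intervals throughout are exact (Clopper-Pearson) and describe counting error alone, since regions are not replicates of plants.

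**Figure D1:**
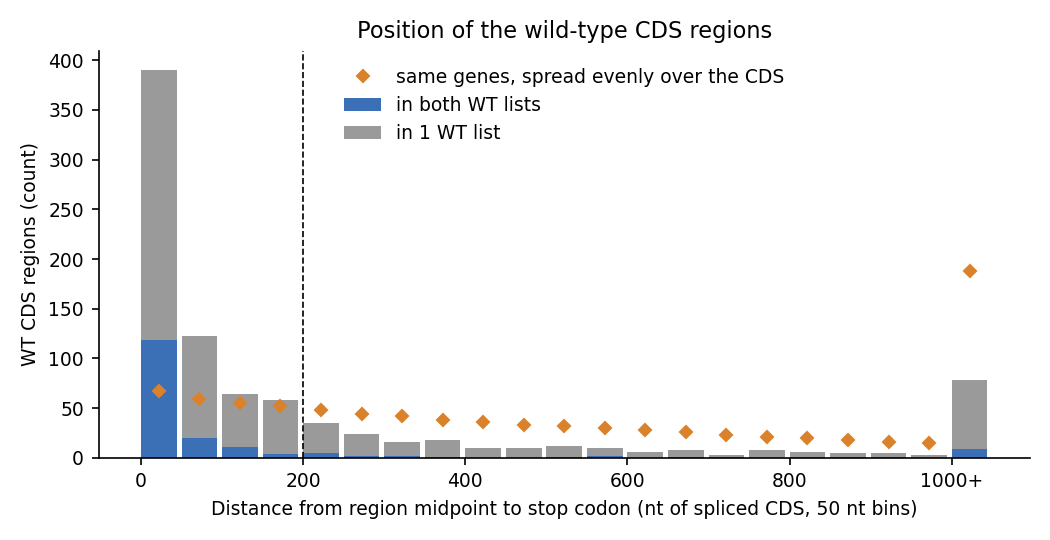
Number of wild-type CDS regions (bars, y axis) in 50 nt bins of distance from the region's midpoint to the stop codon along the spliced CDS (x axis, the last bin holding all regions at 1000 nt or more), split into regions in both wild-type lists and in 1. Diamonds give the counts if the regions were spread evenly over the acceptable positions of their own genes; the first bin holds 390 regions against 66.9, and the last bin 78 against 188.

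These 636 regions are called near-stop below and the other 256 are called interior. The cut at 200 nt is a round value and does not mark a gap in the data. Of the near-stop regions, 317 (49.8%) reached with at least 1 base into the 3' UTR, and 102 (16.0%) had their midpoint in the 3' UTR of another annotated isoform of the gene. Only 5 interior regions (1.95%) did, and 239 of 256 (93.4%) lay in the CDS of every coding isoform. The exon that holds the stop codon held 88.7% of midpoints of near-stop regions that did not reach the 3' UTR, against 87.6% of near-stop positions of the same genes. For interior regions the share was 37.1% against 31.3%. Exons longer than 400 nt held 64.5% of interior midpoints and 56.0% of interior positions.

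Regions near the rule's lower edge at 200 nt past the start codon were as follows. FC1, CB5-B and EMB3114 lay just inside it at 201, 202 and 206 nt, each with a peak in 1 wild-type list, with scores of 17, 31 and 31. Just outside it were AT5G03345 and RAD23D at 196 nt and PHIP1 at 195 nt, with scores of 24, 26 and 16 in 1 wild-type list, and the RAD23D region also met an mta peak. Of the 141 regions in the first 200 nt, 4.96% were in both wild-type lists, and of the 117 regions in the next 200 nt, 12%.

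Coding regions were found again in the other wild-type library less often than 3' UTR regions. Both lists held 181 of 892 coding regions (20.3%, interval 17.7 to 23.1%) and 5045 of 8009 3' UTR regions (63.0%, interval 61.9 to 64.1%; Fisher's exact test over regions, two-sided, p = 6.48e-135), where all wild-type regions together gave 57.2%. Of the 506 regions that lay wholly inside the CDS, 11.5% were in both lists. Replicate 1 alone held 433 coding regions and replicate 2 alone 278. Near-stop regions were in both lists in 24.2% of cases (154 of 636) and interior regions in 10.5% (27 of 256; Fisher's exact test, p = 2.21e-06). By distance the share was 30.4% within 50 nt of the stop codon, 16.0% from 51 to 100 nt and 12.3% from 101 to 200 nt, and then 8.93%, 12.1% and 11.5% in the bands up to 500 nt, up to 1000 nt and beyond. Among near-stop regions, those that reached the 3' UTR were in both lists in 34.7% of cases (110 of 317) and those that stopped short of it in 13.8% (44 of 319). A region in both lists joins peaks of 2 lists, and the median width was 98 bp for such near-stop regions, against 62 bp for all near-stop regions. A wider region reaches the 3' UTR more easily and lies wholly inside the CDS less easily. How far the merging alone sets these shares was not tested.

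Coding peaks also had lower scores and were narrower. Each peak carries a whole-number score from the authors on an unstated scale, so it is given here as a percentile within its list. The median percentile of coding peaks was 26.3 in wild-type replicate 1 and 32.8 in replicate 2, against 52.7 and 52.9 for 3' UTR peaks. Median widths were 62 bp for near-stop, 56 bp for interior and 98 bp for 3' UTR regions. Low-scoring near-stop and 3' UTR peaks were found again less often than high-scoring ones. The classes were therefore set side by side within 4 equal score bins of each list, a comparison added after the data were seen. In the lowest bin of replicate 1, replicate 2 met 23.9% of near-stop, 18.8% of interior and 42.4% of 3' UTR peaks, and in the highest bin 81.3% of 32 near-stop and 93.8% of 3' UTR peaks. In the lowest bin of replicate 2, replicate 1 met 35.7%, 14.3% and 85.8% of them, and in the highest bin 89.7% of 29 near-stop and 99.4% of 3' UTR peaks. The highest bins held 4 and 5 interior peaks, of which 0 and 3 were met.

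**Figure D2:**
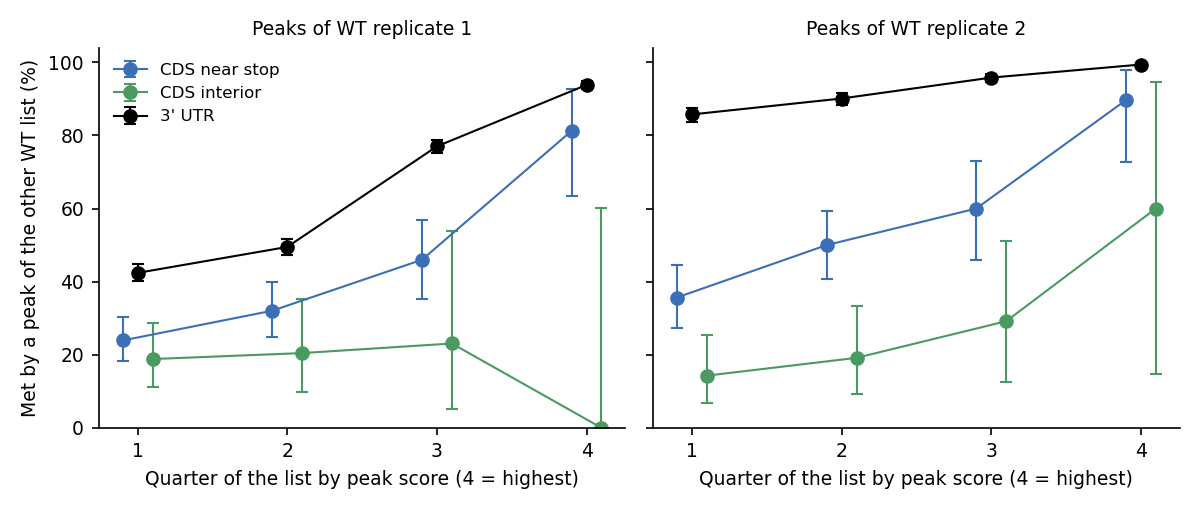
Share of peaks of each wild-type library (left, replicate 1; right, replicate 2) met by a peak of the other wild-type list (y axis, %), by score bin of the list (x axis, 4 equal bins, 4 is the highest) for near-stop CDS, interior CDS and 3' UTR peaks; bars are 95% Clopper-Pearson intervals. In every bin of both libraries the 3' UTR share is above both coding shares, and the gap to near-stop peaks is smallest in the top bin (81.3% against 93.8% in replicate 1).

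The highest-ranked regions in both wild-type lists lay beside stop codons in genes of many kinds. UBP15, a ubiquitin-specific protease, scored 144 and 50 in wild-type replicates 1 and 2 over chr1:5845764-5845896, in the last of its 15 exons and 12 nt from the stop codon. The lipase-family gene AT4G16070, shown above, had the same pair of scores and lay wholly in the CDS, 102 nt from the stop codon. AT5G58200, a predicted metallo-phosphoesterase, scored 123 and 50, and AT4G34090, annotated as cyclin delta-3, 116 and 50. Neither mta list had a peak at any of these 4.

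Others of the top 20 were EMB2453, a repeat protein needed for embryo development (95 and 52), the permease AT5G19500 (108 and 50), and AT5G51620 (105 and 50). The 31 bases at the centre of the AT5G51620 region occur at 3 places in the genome, so its reads may not be its own. AtPOT1a, a protein of telomere maintenance, scored 102 and 42, GLIP5, a GDSL-motif lipase, 76 and 42, and PLL4, a phosphatase related to POLTERGEIST, 87 and 42. All 20 were within 200 nt of the stop codon, and none met an mta peak. Among all 181 regions in both lists these shares were 85.1% and 6.63%. In 16 of the 20 the region reached the 3' UTR, as it did in 110 of the 181. The midpoint lay in the stop codon itself in 5 of the 20, in PLL4, RBL, AT4G34090, EMB1968 and AT5G15400. In EMB1968, EMB2453 and AT5G51620, among others, it lay in the 3' UTR of another isoform.

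Interior regions in both wild-type lists were fewer and ranked lower. There were 27 of them in 26 genes. The strongest more than 1000 nt from a stop codon was that of emb1579, which scored 43 and 50 over chr2:953769-953846, in exon 5 of 19 and 2935 nt upstream of the stop codon. AT1G60200, a splicing factor with an RNA recognition motif, scored 33 and 36 in exon 5 of 7. AT1G20920, annotated as a P-loop nucleoside triphosphate hydrolase, scored 35 and 35 and carried 3 regions within 500 nt of one another, of which the outer pair downstream were in replicate 1 alone. AT3G24080, of the KRR1 family of ribosome assembly factors, scored 37 and 34, and AT1G15280, related to the exon junction protein CASC3, 27 and 35. None of these met an mta peak.

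Further members of the 27 were KTF1, a factor of RNA-directed DNA methylation (24 and 24), BOB1, a small heat shock protein-like chaperone (35 and 29), and the RNA-binding protein AT3G13224 (31 and 28). AT4G25390, a protein kinase gene with a single exon, carried 3 regions, of which those at chr4:12978460-12978558 and chr4:12978683-12978795 were in both lists with scores of 20 and 19 and of 31 and 35. SRX, a sulfiredoxin that repairs overoxidised peroxiredoxins, scored 31 and 21 in wild type and 46 in mta replicate 1. It was 1 of 2 of the 27 met by an mta peak (7.41%, interval 0.910 to 24.3%), against 7.06% of all coding regions. The other was AT1G14250, a predicted nucleoside phosphatase, at 26 and 42 in wild type and 24 in mta replicate 1.

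Near-stop regions as a group carried the m6A consensus more often than other near-stop positions of their genes, and for interior regions as a group the shares were close. RRACH was searched on the transcribed strand within 50 nt of each midpoint, in unspliced genomic sequence. Windows near exon ends therefore include intron bases. On the spliced transcript the RRACH excess over all coding regions was 6.76 points, where genomic windows gave 8.24. The GAAGAA and purine windows below were also genomic, without a spliced version, and how far intron bases set these shares was not tested. RRACH was present at 530 of 636 near-stop regions (83.3%, interval 80.2 to 86.1%), against 77.0% of all near-stop positions of the same genes. It was present at 187 of 256 interior regions (73.0%, interval 67.2 to 78.4%) against 72.4% of interior positions. Over all 892 regions the share was 80.4% against 72.1%, and in 3' UTR regions 76.6% against 71.9%. Among interior regions the share was 78.6% against 72.4% from 201 to 500 nt from the stop codon, 71.2% against 71.7% up to 1000 nt and 66.7% against 73.0% beyond. Within 25 nt the near-stop share was 64.0% against 53.4% and the interior share 50.8% against 48.5%. A pentamer found is a description of the sequence and does not show which base was modified.

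Near-stop regions that reached the 3' UTR had RRACH within 50 nt in 279 of 317 cases (interval 83.9 to 91.4%) against 79.3% of positions, and those that did not in 251 of 319 (interval 73.8 to 83.0%) against 74.8%, which lies within the interval.

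For regions in both lists the near-stop and interior shares lay farther apart. RRACH was within 50 nt of 133 of 154 near-stop regions in both lists (86.4%, interval 79.9 to 91.4%), against 79.0% of positions. It was within 50 nt of 13 of 27 interior regions in both lists (48.1%, interval 28.7 to 68.1%), against 68.4%. Interior regions in 1 list stood at 76.0% against 72.9%. Among the pentamers within 25 nt of near-stop midpoints, AAACA was seen 14.2 times per 100 regions where 9.19 was the rate over their positions, and GGACA 9.28 against 6.35. For interior midpoints AAACA was seen 14.1 times against 9.24, GAACA 12.9 against 7.58, and GGACA 3.91 against 4.01. Within codons, the A of the pentamer's central AC fell at the middle position in 38.2% of near-stop pentamers against 34.4% over positions, and in 41.2% of interior ones against 32.7%.

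Interior regions were rich in purines. The purine hexamer GAAGAA lay within 50 nt of 98 of 256 interior regions (38.3%, interval 32.3 to 44.5%) against 19.5% of interior positions of the same genes. For near-stop regions the values were 22.0% against 19.7%, and for 3' UTR regions 6.69% against 7.52%. Near-stop regions that did not reach the 3' UTR stood above their positions as well, at 29.8% (interval 24.8 to 35.1%) against 24.0%. Those that reached it gave 14.2% against 15.3%. In interior regions in both lists, 14 of 27 (51.9%, interval 31.9 to 71.3%) had it, against 26.3%. Within 25 nt of interior midpoints A made up 35.6% of bases against 30.5% over positions and G 29.7% against 25.7%, while U made up 20.3% against 25.3% and C 14.4% against 18.6%. Here the position values count the single CDS base at each position, so the sides are not measured alike. With windows of 51 bases on both sides, the mean share of A and G was 65.3% against 55.7%. The plant pentamer URUAY, which reads U, then A or G, then U and A, then C or U, was within 50 nt of 14.1% of interior regions against 23.2% of positions, of 31% of near-stop regions against 26.9%, and of 59.5% of 3' UTR regions against 51.1%. A run of 6 A was within 50 nt of 3.13% of interior and 4.87% of near-stop regions, against 3.05% and 4.01% of positions.

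A purine share was then computed for the 51 bases around each midpoint, and a window with at least 75% A and G was called purine-rich, a measure and a cut chosen after the data were seen. By this cut 64 of 256 interior regions (25%, interval 19.8 to 30.8%) were purine-rich against 5.96% of interior positions of the same genes. Of the 27 in both lists 15 were (55.6%, interval 35.3 to 74.5%) against 13.9%. Near-stop regions gave 8.33% against 4.96%, and 3' UTR regions 0.449% against 0.324%. The window at AT1G20920 was 90.2% purine, those at AT3G50690 and at 1 of the AT4G25390 regions 88.2%, and that at AT1G60200 84.3%. The purine-rich interior regions were in both lists in 23.4% of cases (15 of 64) and the other interior regions in 6.25% (12 of 192).

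**Figure D3:**
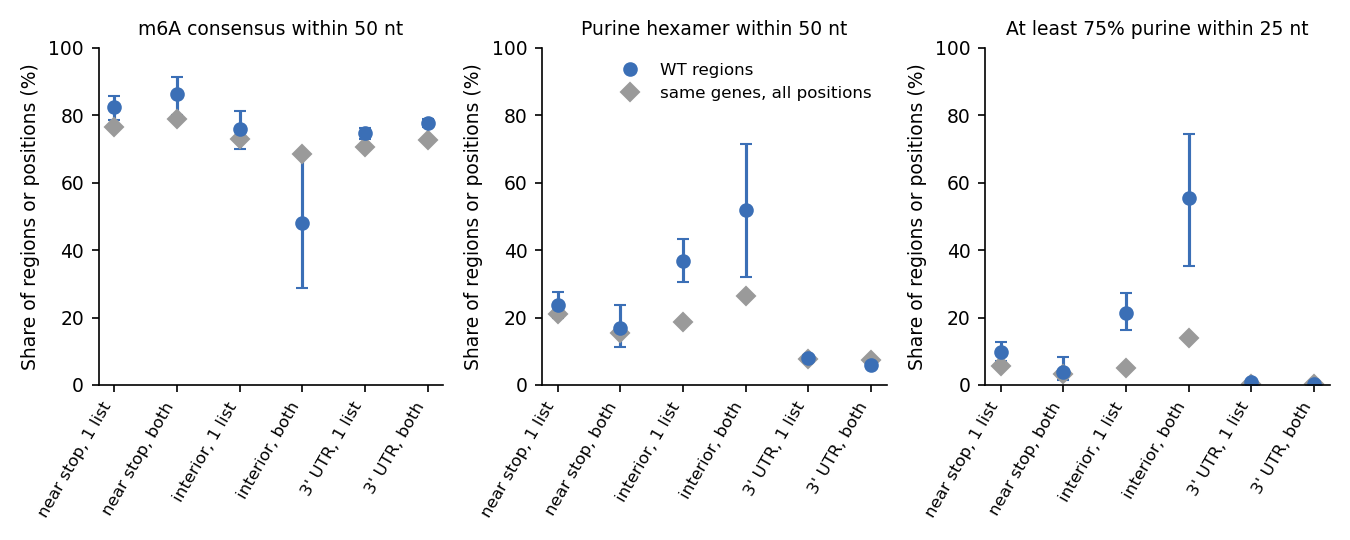
Share of wild-type regions (circles, with 95% Clopper-Pearson intervals) with the RRACH consensus within 50 nt, the purine hexamer GAAGAA within 50 nt, and at least 75% purine in the 51 bases around the midpoint (y axes, %), for near-stop CDS, interior CDS and 3' UTR regions in 1 or both wild-type lists; diamonds give the same share over all positions of that class in the same genes. Interior regions in both lists stand lowest for the consensus (48.1%) and highest for the hexamer (51.9%) and for purine-rich sequence (55.6%).

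Few coding regions met a peak in mta. A peak of either mta list met 63 of 892 (7.06%, interval 5.47 to 8.95%), against 966 of 8009 3' UTR regions (12.1%; Fisher's exact test over regions, two-sided, p = 3.29e-06) and 11.7% of all wild-type regions. Among regions in both wild-type lists the shares were 6.63% (12 of 181) and 15.3% (Fisher's exact test, p = 0.000644). The mta lists were shorter, with 1934 and 2092 peaks where the wild-type lists had 8973 and 6584, and with every list shortened to the same number of peaks the shares were 8.47% for coding and 16.3% for 3' UTR regions (Fisher's exact test, p = 0.149). At scores of at least 50 they were 2.90% and 6.27% (Fisher's exact test, p = 0.146). Near-stop regions were met in 7.55% of cases (interval 5.62 to 9.88%) and interior regions in 5.86% (interval 3.32 to 9.48%) (Fisher's exact test, p = 0.470), and these intervals overlap. None of the 64 purine-rich interior regions met an mta peak, which allows a share of up to 5.60%, and 15 of the other 192 interior regions did (7.81%).

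**Figure D4:**
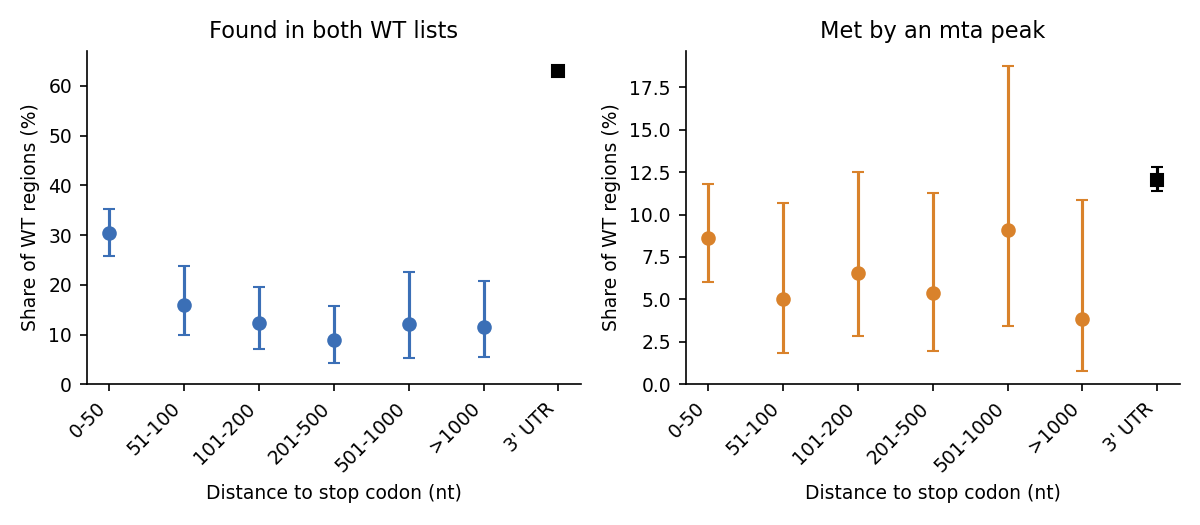
Share of wild-type regions (y axes, %) found in both wild-type lists (left) and met by a peak of either mta list (right), by distance of the midpoint from the stop codon (x axis, nt) and for 3' UTR regions (square); bars are 95% Clopper-Pearson intervals. The share in both lists falls from 30.4% within 50 nt to 16.0% in the next band, while the shares met by mta lie between 3.85% and 9.09% with overlapping intervals.

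Both mta lists met 24 coding regions (2.69%), against 5.08% of 3' UTR regions. Of the 24, 20 were near-stop (83.3%, interval 62.6 to 95.3%), where the share of all coding regions was 71.3%. In both wild-type lists were 3 of the 24 (12.5%, interval 2.66 to 32.4%), against 20.3% of all coding regions. Each interval holds the share of all coding regions. At AT1G75900, a GDSL-like lipase gene (chr1:28500862-28500986), wild-type scores were 36 and 28, and the mta libraries gave 52 and 77. At AT4G16442 the wild-type pair was 62 and 23, and the mta pair 16 and 47. At SAUR75, of a family of auxin-responsive small proteins, the wild-type pair was 66 and 35, and the mta pair 59 and 131. The 31 bases at the centre of the SAUR75 region occur at 1 further place in the genome, so its reads may not be its own.

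The other 21 were in 1 wild-type list. They included NYE1, needed for chlorophyll breakdown (63 in wild-type replicate 1, 32 and 42 in mta), the transcription factor gene WRKY47 (21 in wild-type replicate 2, 22 and 36 in mta), and AGP1, an arabinogalactan protein (31 in replicate 1, 51 and 51 in mta). The 4 interior ones were ACX3, a peroxisomal acyl-CoA oxidase of fatty acid breakdown (49 in replicate 1, 28 and 54 in mta), UBQ13 (43, 70 and 125), ATP-PRT2, which starts histidine synthesis (19, 26 and 48), and AT5G14030 (14 in replicate 2, 15 and 47 in mta). UBQ13 encodes repeated ubiquitin units and has close relatives. The central 31 bases of its region occur once in the genome as an exact match, and near matches were not searched. None of these 4 was purine-rich, with shares from 31.4% to 58.8%.

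The genotypes overlapped in the number of coding peaks but not in where these peaks lay. The overlap in number ended with lists shortened to equal length (28 and 45 for wild type, whereas mta had 548 and 649), and when the first 200 nt past the start codon were included (698 and 545, whereas mta had 755 and 934). Coding peaks numbered 626 and 470 for wild type, while mta had 548 and 695, or 548 ± 110 and 621.5 ± 103.9 (SD, n = 2 each; exact permutation test, two-sided, p = 0.667). As a share of placed peaks this was 7.38% and 7.54% for wild type, whereas mta gave 31.9% and 38.7%. Peaks in 3' UTRs numbered 7756 and 5658 for wild type, whereas mta had 920 and 800. Near-stop peaks numbered 480 and 331 for wild type, whereas mta had 259 and 279. Interior peaks numbered 146 and 139 for wild type, whereas mta had 289 and 416. The near-stop share of coding peaks was 76.7% and 70.4% for wild type, whereas mta gave 47.3% and 40.1%. The genotypes did not overlap in these measures (exact permutation p = 0.33 for each, the smallest that 2 libraries against 2 allow).

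Interior peaks of the genotypes also differed in sequence. Among wild-type interior peaks, 38 of 146 and 40 of 139 were purine-rich (26% and 28.8%). The mta libraries gave 0 of 289 and 1 of 416 (exact permutation p = 0.33). The same genes' interior positions were purine-rich in 7.03% and 6.37% of cases for the wild-type peaks and 0.908% and 0.675% for the mta peaks, so the genes differed as well. GAAGAA was near 38.4% and 39.6% of wild-type interior peaks, whereas mta gave 3.81% and 6.97%. RRACH was near 69.9% and 72.7% of the wild-type ones, against 71.9% and 72.2% of positions. For mta the shares were 78.2% and 80%, against 70.6% and 71.7% of positions. By score bin from the lowest to the highest, purine-rich windows made up 32.9%, 15.9% and 23.1% of interior peaks and 0 of 4 in wild-type replicate 1. In replicate 2 they made up 25.4%, 29.8% and 37.5%, and 1 of 5.

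Few interior peaks coincided across genotypes, and for wild-type peaks the near-stop shares were low as well. Wild-type interior peaks met the other wild-type list in 19.2% and 20.1% of cases and the mta lists in 2.16% to 4.32%. Wild-type near-stop peaks met the mta lists in 3.96% to 6.65% of cases, and wild-type 3' UTR peaks in 7.57% to 11.0%. Interior peaks of mta replicates 1 and 2 met the other mta list in 40.8% and 27.6% of cases and the wild-type lists in 0.481% to 2.42%. For near-stop peaks of mta the wild-type lists met 15.8% to 20.5%, and for 3' UTR peaks of mta 65.4% to 75%.

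**Figure D5:**
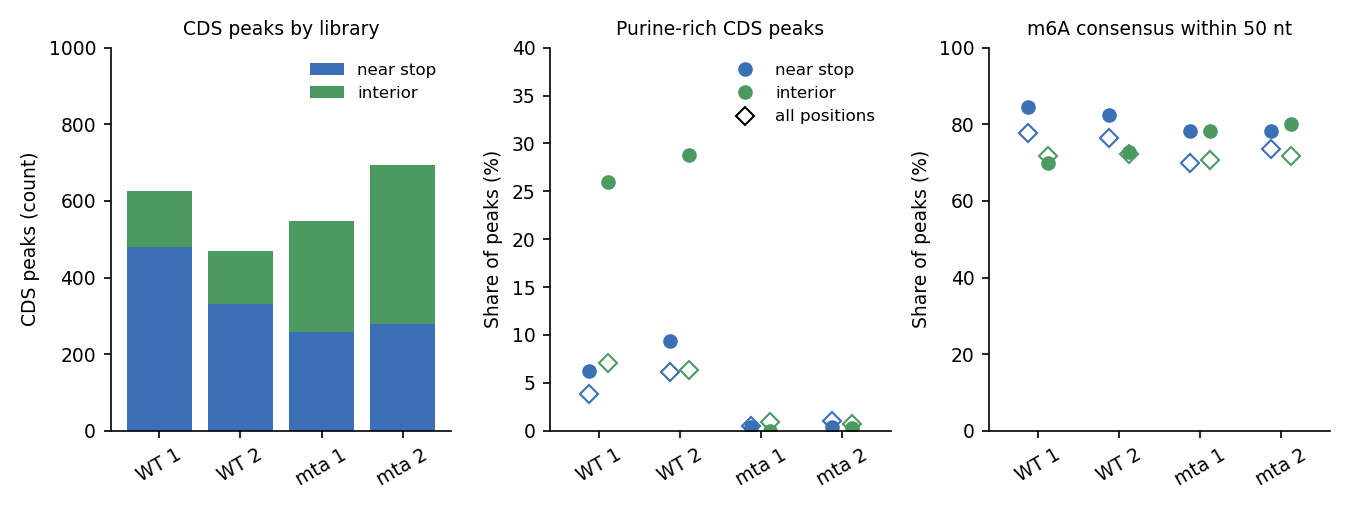
Coding peaks of each library (left, stacked counts near the stop codon and in the interior), and the share of them (circles, y axes in %) that were purine-rich (middle) or had the RRACH consensus within 50 nt (right), for the 2 wild-type and 2 mta libraries (x axes); open diamonds give the share over all positions of that class in the same genes. Interior peaks are purine-rich in 26% and 28.8% of cases in wild type and in 0 of 289 and 1 of 416 in mta.

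Of the 856 genes, 825 had 1 coding region, 26 had 2 and 5 had 3. A wild-type region in the 3' UTR was also present for 478 of the 892 regions (53.6%), at a median distance of 142 nt between midpoints for near-stop and 751 nt for interior regions. Of all 27444 coding genes, 7161 had a wild-type 3' UTR region, and the lists hold no RNA levels with which to match genes. EXT3, an extensin of the cell wall with a repetitive coding sequence, had 3 regions, each found in wild-type replicate 2 and not in replicate 1, with scores of 20, 20 and 19, and a peak of mta replicate 1 scoring 33 met 1 of them. The other genes with 3 regions were AT1G20920, AT4G25390, KTF1 and AT5G39670. The central 31 bases of 37 regions (4.15%) occur elsewhere in the genome, against 1.17% of 3' UTR regions. At 5 regions they occur 5 times, in AT1G58807, AT1G58848, AT1G59124, AT1G59218 and AT4G16900, and values of such genes cannot be told apart from those of their copies.

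Gene groups were formed from words in the RefSeq product names, and each count is set beside the genes with a wild-type 3' UTR region and all 27444 coding genes. Such matching put HXK2, a hexokinase, among protein kinases, and AT2G22120, a RING/FYVE/PHD zinc finger protein, among transcription factors. The shares therefore describe matched names, and the functions of the members were not checked. Disease resistance and leucine-rich repeat proteins, the plant immune receptors among them, made up 21 of 856 genes with a coding region (2.45%), 56 of 7161 genes with a 3' UTR region (0.782%) and 1.60% of all coding genes. In 9 of these 21 genes the central 31 bases of a region occur elsewhere in the genome. AT1G58807, AT1G58848, AT1G59124 and AT1G59218 each had a score of 13 in replicate 1 alone at the same distance from the start codon, and RPP1 (41 and 38) and AT3G44670 (41 and 42) had regions of equal width at the same distance from the stop codon. The 21 genes may therefore hold fewer separate peaks.

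Ribosomal proteins made up 10 genes (1.17%), against 240 genes with a 3' UTR region (3.35%) and 1.41% of all coding genes. The highest-ranked was AT4G38090, a protein with a ribosomal S5 domain (64 and 43 in wild type, 55 in mta replicate 1). The other 9 were in 1 wild-type list each, among them AT5G15220, a ribosomal L27 family protein (36 in wild-type replicate 2, 57 and 57 in mta). Splicing factors and helicases made up 14 genes (1.64%), 7 of them among the 242 genes with an interior region (2.89%), against 0.936% of genes with a 3' UTR region and 0.714% of all coding genes. Pentatricopeptide and tetratricopeptide repeat proteins made up 16 (1.87%), against 0.894% and 2.13%.

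For the other groups, 3 shares follow in the same order, of genes with a coding region, of genes with a 3' UTR region and of all coding genes. Protein kinases gave 5.96%, 5.45% and 5.05%, and transcription factors 5.14%, 4.18% and 5.44%. Membrane transporters gave 3.62%, 3.66% and 2.93%, the ubiquitin system 3.27%, 3.66% and 5.39%, and RNA-binding proteins 2.10%, 1.84% and 1.07%. Chaperones gave 1.05%, 1.30% and 1.04%, and cell wall glycoproteins 1.87%, 1.13% and 2.38%. Translation factors gave 0.467%, 0.991% and 0.554%, histones 0.584%, 0.433% and 0.401%, and photosynthesis proteins 0.234%, 0.335% and 0.324%. Proteins named only as hypothetical or unknown gave 4.09%, 3.27% and 4.50%. No test was made of these groups.

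Of 23 genes of the m6A machinery, 2 had a coding region, both in 1 wild-type list. FIP37, the writer subunit, had a peak scoring 59 in replicate 1, at chr3:20059312-20059370 in its last exon and 53 nt from the stop codon. The eraser ALKBH10B (AT4G02940) had one scoring 29 in replicate 2, at chr4:1307049-1307102 in exon 1 of 7 and 1289 nt from the stop codon. Both genes also had a wild-type region in the 3' UTR, as did 11 of the 23 in all. No coding region was found for MTA, MTB or any ECT reader.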

How the data were processed

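miCLIP peak lists of 4 m6A+ libraries (2 wild type, 2 mta) were analysed; the 4 supernatant libraries were not analysed here. The submitters' processing notes name the TAIR10 build and the tools MACS2 and STAR (2.4.0) without their roles. For the peak threshold, the control and the MACS2 version, the entry is not given in the sources used here. Peak names in the deposited lists show that the authors called peaks per library and strand. The deposited values are the authors' whole-number score per peak, on an unstated scale (13 to 203 over the lists), and the start and end. Read depth is unknown, because the lists hold none; intervals (95%, Clopper-Pearson) therefore rest on counts of regions.

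Positions were placed on RefSeq gene models of TAIR10.1, whose chromosomes hold every nuclear peak end (0 lay past one). Peaks were merged within a genotype, and a merged region was called met by a list when at least 1 bp overlapped on the same strand. Backgrounds were counted over all acceptable positions of the regions' own genes, once per region, with no random draws. Counting used Python 3.11.15, numpy 2.4.6 and scipy 1.17.1. Shares were compared with Fisher's exact test and libraries with exact permutation tests (smallest p for 2 against 2, 0.33). Placement was tested on simulated data. Gene groups were matched by keywords, with or without a capital first letter. The regions and gene groups were chosen with earlier results of these data known. The named regions are the top 20 in both wild-type lists by mean score percentile, those in both wild-type lists and met by both mta lists, the 5 highest more than 1000 nt upstream of a stop codon, 3 genes with the most regions, up to 2 per gene group and the m6A genes; others were named after their values were seen. Alternatives covered the score, list length, overlap, gene model, windows and left-out libraries. A planned description of encoded residues was not made.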

Additional observations from a re-analysis of the deposited data

Results flagged for a closer look

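The share of coding peaks within 200 nt of the stop codon was 29.8 percentage points higher in wild type (76.7% and 70.4%) than in mta (47.3% and 40.1%). It was noted because near-stop peaks were more numerous and interior peaks less numerous in both wild-type libraries than in either mta library. The exact permutation p of 0.33 is the smallest that this design allows. The mta lists were shorter, and the part of list length in this difference was not tested.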

How the results depend on the processing

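Of 77 alternative values, 51 were counted as the same, 21 as moved, 3 as reversed and 2 as weaker. For tested values, the same meant an unchanged direction and side of the threshold, though these values differed in size. For values without a test it meant moving by less than the spread. For the number of coding regions it meant staying within a set ratio of the main number. The number of coding regions was 138 at scores of at least 50, 59 with lists shortened to the shortest, 506 for regions wholly inside the CDS, and 470 to 626 with 1 wild-type library left out (470 without replicate 1). Wild-type replicate 2 kept only 10 coding peaks at that score, so this alternative tests little. The share in both wild-type lists stayed below that of 3' UTR regions in every alternative run, and ranged from 6.52% (scores of at least 50) to 23.7% (shortened lists). The share met by mta was 2.90% against 6.27% in 3' UTRs (Fisher's exact test, p = 0.146) at scores of at least 50 and 8.47% against 16.3% (p = 0.149) in shortened lists, where fewer regions were tested. The excess of RRACH over positions, 8.24 points, was 11.9 within 25 nt, 2.13 within 100 nt, 5.00 for DRACH (which adds pentamers opening with U), 6.76 on the spliced transcript and 9.09 in both lists. The near-stop excess of 45.1 points was 60.5 in both lists, 36.0 at 400 nt and 42.4 to 51.7 with a library left out. For interior regions, alternatives chosen after seeing the data gave a GAAGAA excess of 12.7 within 25 nt and 25.5 in both lists (18.8 in the report), an RRACH difference of -20.3 in both lists, 3.13 in 1 list and -2.00 to 0.451 with a library left out (0.658 in the report), and a purine-rich excess of 28.9 and 11.6 at 70% and 80% purine, 16.5 within 50 nt, 41.6 in both lists, 16.4 in 1 list and 19.0 to 22.4 with a library left out (19.0 in the report). Why these values moved was not tested. The difference in coding peaks, -73.5 (wild type minus mta), ranged from -151.5 to 4.5 with a library left out (4.5 without wild-type replicate 2, and 0 without mta replicate 2), and was -562 in shortened lists. With the replicate block it was -73.5 with an exact permutation p = 1; nothing shows that equal replicate numbers pair the libraries. The unknown depth and list lengths limit all absences.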
